A study of Saccharomyces cerevisiae with 12 samples.

Results

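Yeast cells that make an antibody fragment against acetylated histone H3 were compared with wild type cells on 8 of the 12 arrays of the series, 4 arrays per group. All cells are the Saccharomyces cerevisiae strain L40, a laboratory strain built for 2-hybrid screens. Cells of the first group, called 58F below, stably express ScFv-58F, a single-chain antibody fragment directed against histone H3 acetylated at K9. Cells of the second group are L40 without any such intrabody, that is, without an antibody fragment made inside the cell. The other 4 arrays, called 112A, come from L40 cells that stably express ScFv-112A, the control intrabody, which is raised to acetylated integrase of HIV-1. Per the labels' protocols, 58F and 112A were kept on plates and in pre-cultures without leucine and wild type in rich YPD medium, and all of them spent their final overnight growth in YPD. The promoter and the copy number of the intrabody constructs are not given in the sources used here, and neither is whether the 4 replicates of a group are separate cultures, so p-values measure only the spread between these samples. The 4 arrays of a group share 1 slide and 1 scan. Intrabody, leucine selection, culture history and slide therefore cannot be told apart between 58F and wild type, and 112A, which shares the selection but lies on another slide, is set beside them throughout.

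Acetylation of the amino-terminal tail of histone H3 is laid down in yeast by acetyltransferases such as Gcn5 of the SAGA complex and removed by deacetylases such as Rpd3 and Hda1. It marks the promoters of active genes, and proteins with a bromodomain read it. Yeast adjusts its transcription strongly to the carbon source: with ample glucose it ferments and represses respiration and gluconeogenesis, and after glucose has run out it turns to ethanol and respires.

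Levels are given as log2 of the processed signal relative to the 75th percentile of the same array, and a difference is the 58F mean minus the wild type mean with the SE of the fit. Genes with an adjusted p below 0.05 are called (limma, Benjamini-Hochberg over 5827 genes). Wild type replicate 1 stands apart from its group, with a 75th percentile of 9362 where the others of its group have 5592 to 6047 and the 58F arrays 4739 to 5782. Relative to that percentile, the 7 probes for spike-in RNA lay 0.48 higher in 58F than in wild type, and 0.32 higher without wild type replicate 1; how much spike-in RNA was added is not given in the sources used here. A scale set on the spike-ins moves the median of all genes from -0.01 to -0.49. Every difference below is relative to the bulk of the transcripts, and rises of less than 0.48, among them those of 1197 called genes, turn into negative values on the spike-in scale. Larger rises shrink on that scale and can lose their call. That of ERG2, of ergosterol synthesis, went from 0.82 to 0.34 (adjusted p = 0.114). Of the a-cell markers, MFA1, MFA2, STE2, BAR1, AGA2, ASG7 and STE6 were well above background on all arrays, L40 being a MATa strain. The alpha pheromone gene MF(ALPHA)1 was above background on 0 arrays and MF(ALPHA)2 on 2 of 58F, 0 of 112A and 1 of wild type, while STE3, the receptor for a-factor that alpha cells make, and the alpha-agglutinin gene SAG1 were above background on all of them. Fewer cells of a kind and less RNA per cell cannot be told apart in these bulk samples.

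The labels were checked on LEU2 (YCL018W), the selected marker of both intrabody strains, which codes for isopropylmalate dehydrogenase of leucine synthesis. Its log2 level was 6.06, 6.21, 6.24 and 6.08 on the 58F arrays and 1.62, 1.51, 1.46 and 1.49 on the wild type arrays. No array of one group comes near the other. LEU2 was 24.7-fold higher in 58F (difference 4.63 ± 0.08, adjusted p = 2.95e-12), and in 112A it was 4.36 above wild type. As the marker of both intrabody strains, LEU2 checks their labels against wild type but not 58F against 112A.

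Across all genes, 61.9% of those tested were called, 3609 of 5827: 1732 higher in 58F (29.7%) and 1877 lower (32.2%). On the spike-in scale the same test gave 81 higher and 3502 lower. Most differences were small. The median size of a called difference was 0.37, and 67.1% of called differences were under 0.5. At 2-fold or more, 207 genes were called (3.55%), 56 higher (0.961%) and 151 lower (2.59%). The spike-in shift of 0.48 is too small to turn the sign of any change of that size, so keeping the sign is no check on them. The groups do not overlap for 57.9% of genes. For comparison, 32.0% of genes were called between 58F and 112A (14.1% higher and 17.9% lower) and 48.3% between 112A and wild type (22.8% higher and 25.5% lower). Without wild type replicate 1, 3584 genes were called, 182 of them at 2-fold or more.

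**Figure D1:**
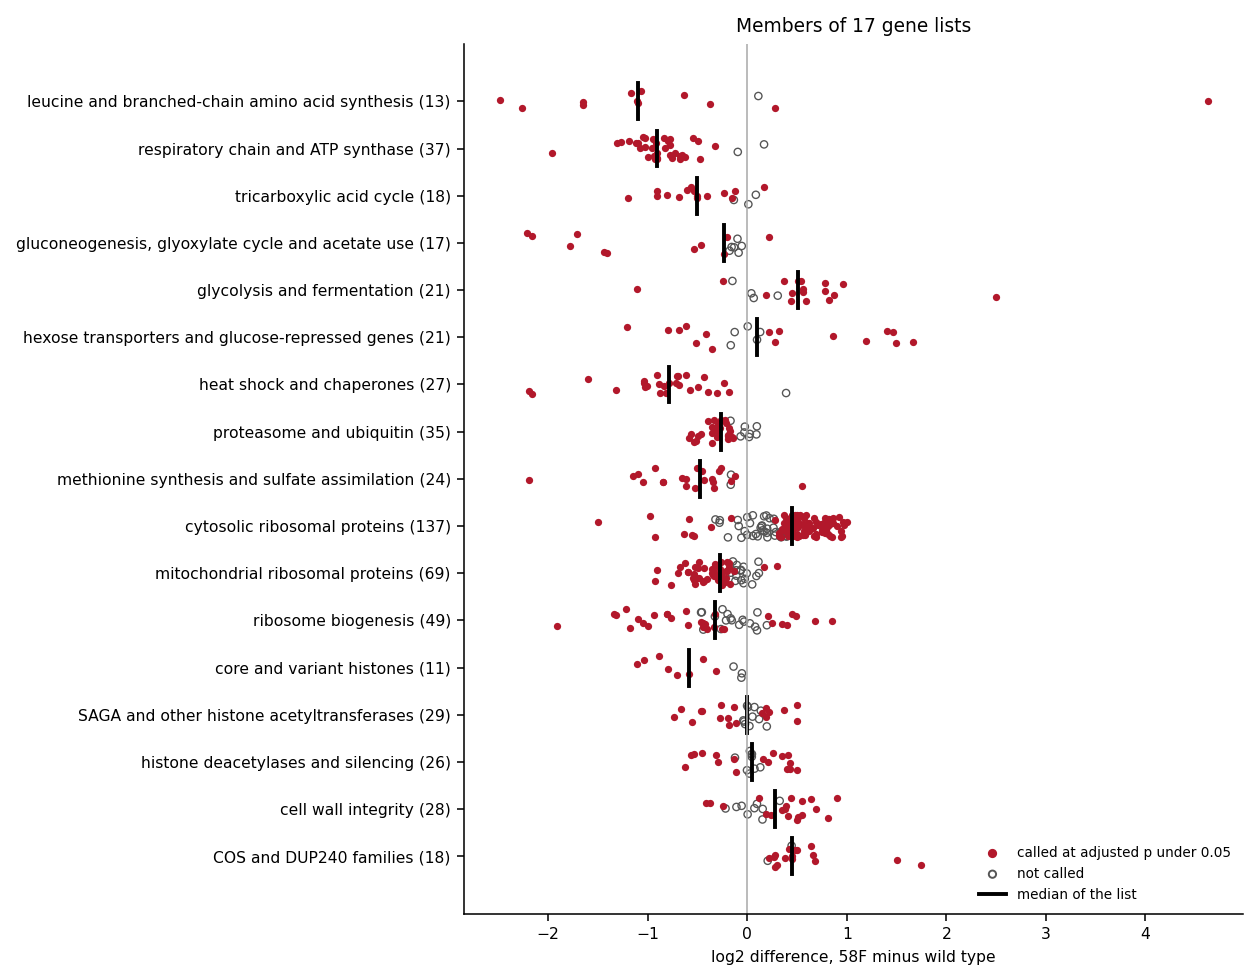
Log2 difference, 58F minus wild type, of each tested member of 17 gene lists; filled points were called, open ones were not, and bars are list medians. Respiratory and chaperone genes lie almost wholly below 0, cytosolic ribosomal proteins and the COS and DUP240 families mostly above it, and acetyltransferase and deacetylase genes on both sides.

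Most other enzymes of leucine synthesis fell. LEU1 (YGL009C), the isomerase one step before LEU2, had log2 levels of -1.32, -1.28, -1.21 and -1.40 in 58F and 1.33, 1.18, 1.14 and 1.09 in wild type. It was the deepest fall among genes above background on all 8 arrays, 5.6-fold (-2.49 ± 0.06, adjusted p = 1.09e-10). In 112A the fall of LEU1 was of nearly the same size, -2.44, and 58F and 112A differ by -0.05 (adjusted p = 0.582). ILV5 (YLR355C), the reductoisomerase of valine, isoleucine and leucine synthesis, was at -2.88, -2.92, -2.79 and -2.87 in 58F and at -0.24, -0.68, -0.62 and -0.85 in wild type. Its groups do not overlap either (-2.27 ± 0.11, adjusted p = 5.25e-08), and here 58F also lay 0.79 below 112A (log2 difference -0.79, adjusted p = 0.00038). BAT1, the mitochondrial branched-chain transaminase, and OAC1, a mitochondrial carrier that exports the leucine precursor, both fell by 1.65. Of 13 genes of leucine and branched-chain amino acid synthesis, 10 fell and 2 rose, LEU2 and LEU3, with a median of -1.10. LEU3, the transcription factor of the pathway, rose by 0.28 only, which turns to -0.20 on the spike-in scale. BAP2, a permease for leucine, isoleucine and valine, fell by 1.02 in 58F, and its 112A difference from wild type was -1.08.

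**Figure D2:**
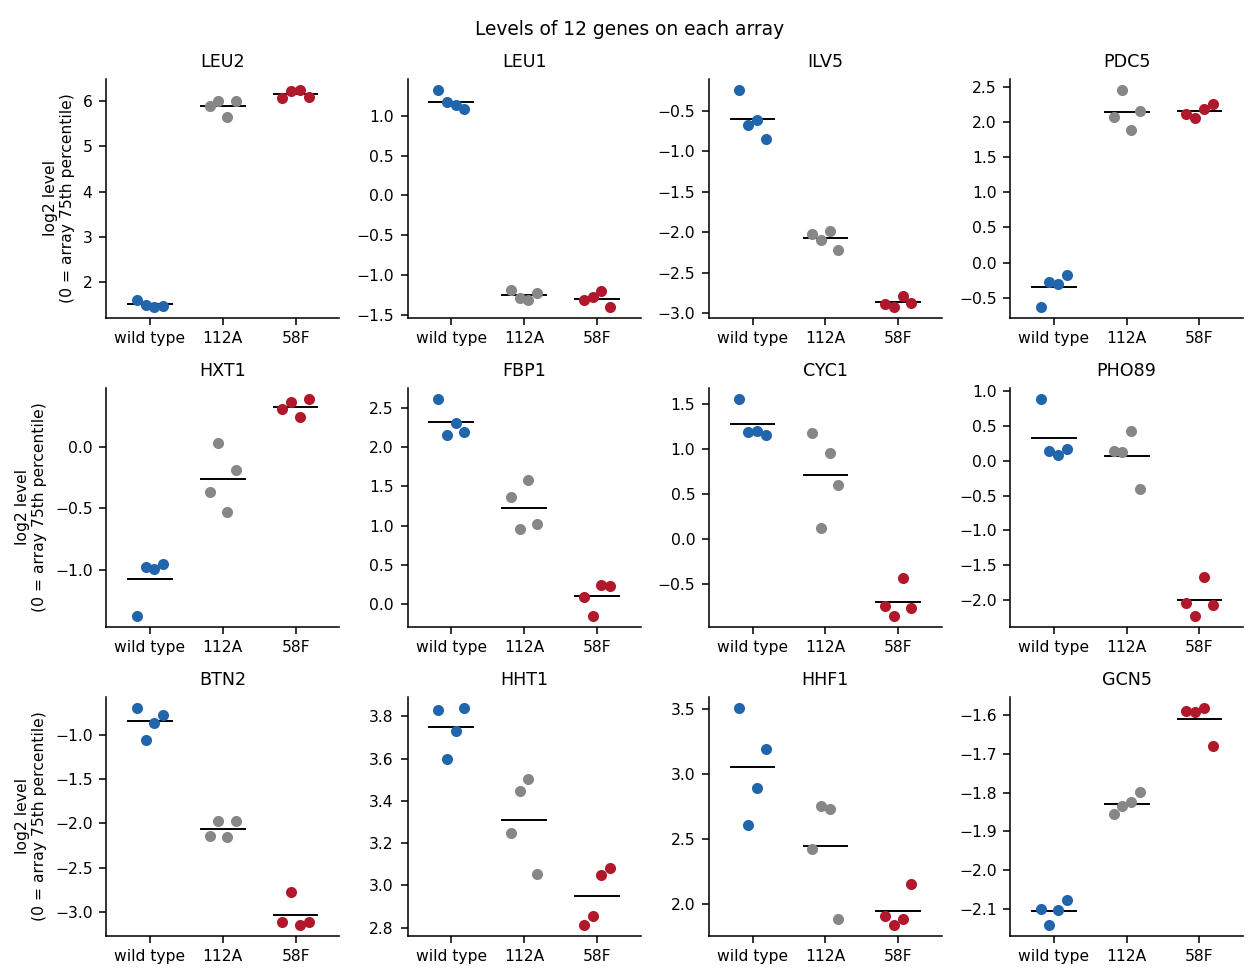
Log2 level (0 is the 75th percentile of the array) of 12 genes on each of the 12 arrays, by group; points are arrays and lines are group means. LEU2 and PDC5 are high and LEU1 is low in both intrabody groups alike, whereas CYC1, PHO89, FBP1 and BTN2 are lowest on the 58F arrays.

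Beyond leucine and branched-chain synthesis, the deepest falls among genes above background on all 8 arrays were those of YDL218W, of unnamed function, by 2.36, and of PHO89. The sodium-phosphate cotransporter gene PHO89 was at -2.04, -2.23, -1.67 and -2.08 in 58F and at 0.89, 0.15, 0.08 and 0.17 in wild type. All 58F arrays lie far below all wild type arrays (-2.33 ± 0.20, adjusted p = 2.34e-06). In 112A, PHO89 was at 0.07 ± 0.34 (SD, n = 4), a difference from wild type of -0.25 that was not called (adjusted p = 0.327). SUL1, a high-affinity sulfate permease, fell by 2.19, and FRE7, a copper-regulated metalloreductase, fell by 1.94. RKI1, the ribose-5-phosphate isomerase of the pentose phosphate pathway, fell by 2.07. PRM7, a pheromone-regulated membrane protein, fell by 2.23. On wild type replicate 1 PRM7 and YDL218W stood well above the other wild type arrays, with PRM7 at -0.21 against -1.76 to -1.17 and YDL218W at 0.45 against -1.02 to -0.71. NSR1, a nucleolar protein of rRNA processing, fell by 1.91 with a similar spread in wild type, from -0.60 to 0.79.

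Among the rises, PDC5 (YLR134W), a minor pyruvate decarboxylase that makes acetaldehyde for fermentation, came next after LEU2 among genes above background on all 8 arrays. Its log2 level was 2.11, 2.06, 2.18 and 2.25 in 58F and -0.63, -0.27, -0.31 and -0.18 in wild type. PDC5 was 5.64-fold higher in 58F (2.5 ± 0.12, adjusted p = 5.69e-08). It was 2.49 higher in 112A, and 58F differed from 112A by 0.01 (adjusted p = 0.963). YJR154W, of unnamed function, had levels of -2.93, -3.13, -3.13 and -2.92 in 58F and -5.05, -5.14, -5.24 and -4.95 in wild type. Here 58F stood apart from both other groups: the difference was 2.07 ± 0.22 from wild type (adjusted p = 9.37e-06) and 1.67 from 112A (adjusted p = 0.000314), while 112A differed from wild type by 0.40 (adjusted p = 0.153). YBR238C, a mitochondrial protein, was at -2.63 to -2.60 on the 58F arrays and -4.96 to -4.14 on the wild type arrays, a rise of 1.85. BAG7, a GTPase-activating protein for Rho1, rose by 1.47 and GPI18, a mannosyltransferase of GPI anchor synthesis, by 1.37.

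Genes of respiration fell almost without exception. Of 37 genes for the respiratory chain and ATP synthase encoded in the nucleus, 35 fell and 0 rose, with a median of -0.91 against -0.01 for all genes. CYC1 (YJR048W), the main form of cytochrome c, was at -0.74, -0.85, -0.42 and -0.76 in 58F and at 1.55, 1.19, 1.19 and 1.15 in wild type. It was 3.90-fold lower in 58F (-1.96 ± 0.19, adjusted p = 5.13e-06), and the groups do not overlap. COX5A and COX8, subunits of cytochrome c oxidase, fell by 1.31 and 1.26, and ATP14, a subunit of ATP synthase, by 1.18. The list's median was -0.29 for 112A against wild type and -0.62 for 58F against 112A, and 58F was below 112A for 34 of the 37 genes. HAP4, the regulatory subunit of the Hap2/3/4/5 activator of respiratory genes, was at 2.11, 2.03, 2.19 and 2.0 in 58F and at 2.90, 3.01, 2.98 and 2.93 in wild type. The 58F arrays are all below the wild type arrays (-0.87 ± 0.06, adjusted p = 3.51e-07). HAP3, a DNA-binding subunit of the same activator, fell by 1.16.

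Transcripts encoded in the mitochondrial genome did not follow. Of 20 such genes, 14 rose and 1 fell, with a median of 0.45, which is -0.03 after the spike-in shift and 0.48 in 112A against wild type. COX2, ATP8 and COB are given as examples picked after their values were seen. COX2, a core subunit of cytochrome c oxidase, was at 0.90, 0.96, 1.14 and 0.91 in 58F and at -0.01, 0.50, 0.45 and 0.56 in wild type, a rise of 0.60. ATP8, a subunit of ATP synthase, rose by 0.70, and COB, the apocytochrome b gene, fell by 0.30. The labelled RNA was polyadenylated RNA, per the labels' protocols, and yeast mitochondrial messages have no poly(A) tail.

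Of 18 genes of the tricarboxylic acid cycle and pyruvate entry, 14 fell and 1 rose, with a median of -0.50. FUM1, the fumarase, fell by 1.2. ACO1, the aconitase, and KGD2, a component of alpha-ketoglutarate dehydrogenase, each fell by 0.91. In gluconeogenesis, the glyoxylate cycle and acetate use, 10 of 17 genes fell (58.8%) and 1 rose (5.88%), beside 32.2% and 29.7% of all genes. Of the falls, 6 were 2-fold or more, beside 2.59% of all genes. The median of the list was -0.23 in 58F and -0.40 in 112A against wild type, where 11 fell and 1 rose. FBP1 (YLR377C), the fructose-1,6-bisphosphatase that commits carbon to gluconeogenesis, was at 0.09, -0.15, 0.24 and 0.23 in 58F and at 2.62, 2.16, 2.30 and 2.19 in wild type. All 4 wild type arrays lie above all 58F arrays, 4.64-fold on average (-2.21 ± 0.15, adjusted p = 4.42e-07). MLS1, the malate synthase of the glyoxylate cycle, fell by 2.16, SFC1, a mitochondrial succinate-fumarate carrier, by 1.79 and PCK1, the gluconeogenic phosphoenolpyruvate carboxykinase, by 1.71. In 112A, FBP1 was 1.09 below and MLS1 1.21 below wild type (log2 differences -1.09 and -1.21), and 58F lay below 112A for both (-1.13 and -0.95).

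Glycolysis and fermentation moved the other way relative to the bulk of transcripts, with 15 of 21 genes higher, 2 lower and a median of 0.51, which the spike-in scale brings to -0.03. PGI1, the glucose-6-phosphate isomerase, was at 4.53, 4.60, 4.53 and 4.50 in 58F and at 3.62, 3.69, 3.78 and 3.80 in wild type. Its groups do not overlap (0.82 ± 0.09, adjusted p = 1.07e-05), but on the spike-in scale the difference was 0.33 and not called (adjusted p = 0.0882). ADH1, the main fermentative alcohol dehydrogenase, rose by 0.96, and ENO2, an enolase, by 0.87. PDC6, a pyruvate decarboxylase isozyme that fermentation does not need, fell by 1.11. The median of the list was 0.21 for 112A against wild type and 0.23 for 58F against 112A.

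Hexose transporter genes moved in both directions. HXT1 (YHR094C), the low-affinity transporter induced by high glucose, was at 0.30, 0.36, 0.24 and 0.39 in 58F and at -1.38, -0.98, -1.0 and -0.95 in wild type. It was 2.64-fold higher in 58F (1.40 ± 0.12, adjusted p = 1.8e-06), with 112A between the groups at -0.26 ± 0.24 (SD, n = 4). HXT2, a high-affinity transporter, was at 3.44, 3.46, 3.36 and 3.78 in 58F and at 1.85, 1.91, 1.70 and 1.95 in wild type. That is a rise of 1.66 ± 0.15 (adjusted p = 2.68e-06). HXT13 and HXT16, members of the family close to polyol transporters, rose by 1.49 and 1.46, and such near-identical copies may share signal. HXT5, a transporter of slow-growing cells, fell by 1.21, and SUC2, the glucose-repressed invertase, by 0.80. STD1, a partner in glucose signalling to the HXT promoters, rose by 1.40 and MIG3, a repressor related to Mig1, by 1.43. Among all 21 hexose transporters and related glucose-repressed genes, 9 rose (42.9%) and 7 fell (33.3%), beside 29.7% and 32.2% of all genes. GAL1, the galactokinase that glucose represses, was at 5.38 to 5.61 in 58F and 5.81 to 6.24 in wild type, a fall of 0.55.

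**Figure D3:**
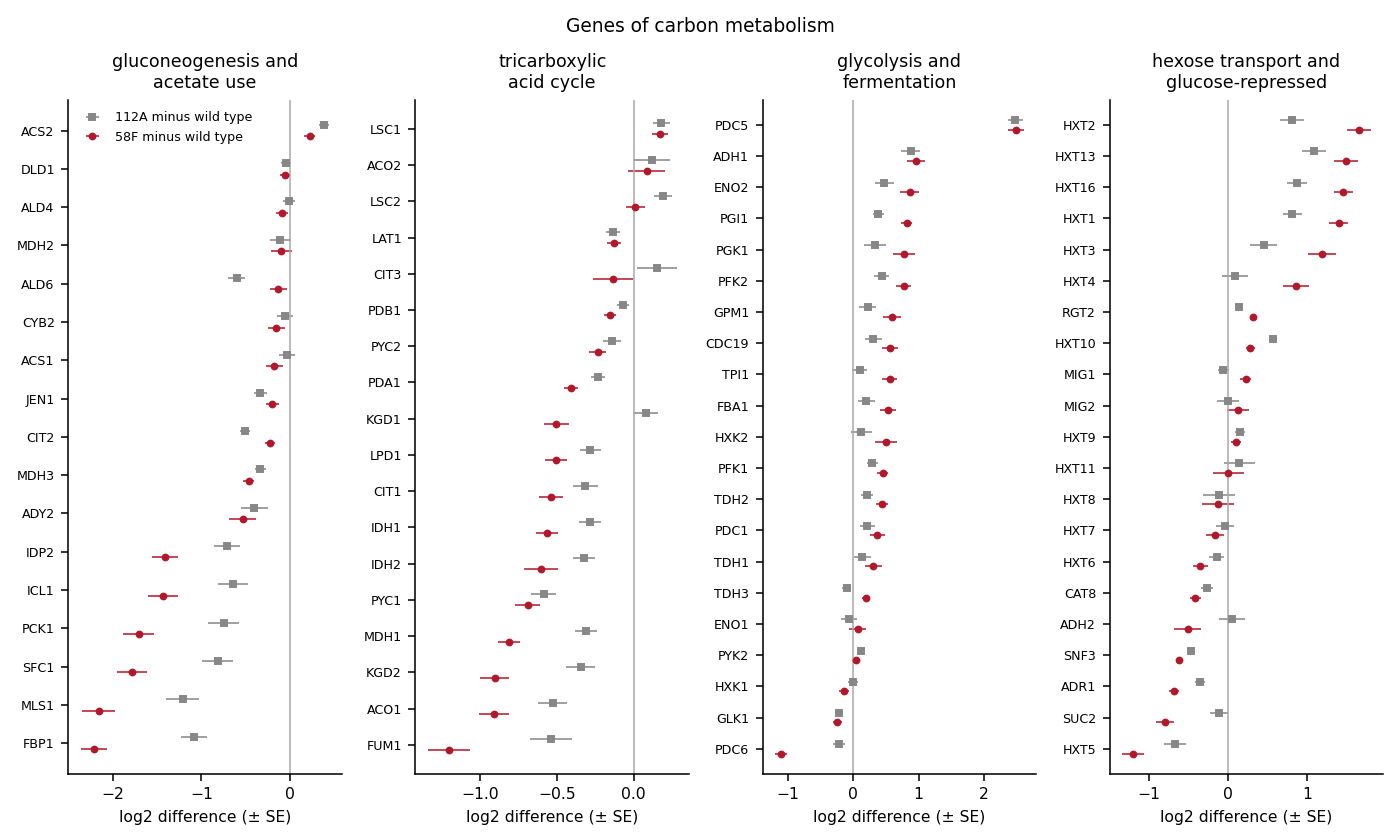
Log2 difference from wild type with its SE for the genes of 4 carbon metabolism lists, 58F in red circles and 112A in grey squares, 4 arrays per group. FBP1, MLS1, SFC1 and PCK1 lie below -1.5 in 58F, PDC5 is equally high in both intrabody groups, and HXT2, HXT13, HXT16 and HXT1 rose most among the transporters.

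Ribosomal protein genes and the genes that build ribosomes differed in direction. Of 137 cytosolic ribosomal protein genes, 92 rose and 9 fell, with a median of 0.45, and on the spike-in scale the median was -0.03 with 6 genes higher. RPL21A, a protein of the large subunit, was at -2.23, -2.04, -2.09 and -1.66 in 58F and at -3.26, -3.04, -2.98 and -2.74 in wild type, and it rose by 1.00. RPL21B, its near-identical paralogue, was at -2.37 to -1.94 in 58F and -1.68 to -1.51 in wild type, and fell by 0.63. The pair thus went in opposite directions, though copies this similar may share signal. RPS0A, a protein of the small subunit, rose by 0.97. RPS9A fell by 1.5, and RPL14A and RPL14B, both copies of another large subunit protein, fell by 0.98 and 0.92. Against 112A, 8 of the 137 genes were higher and 4 lower in 58F, beside 14.1% and 17.9% of all genes.

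Genes that build ribosomes went down more often than up: 23 of 49 ribosome biogenesis genes fell and 8 rose, with a median of -0.32, or -0.20 without wild type replicate 1. CIC1, a factor of large subunit assembly, was at -5.34, -5.34, -5.26 and -5.17 in 58F and at -3.19, -4.34, -4.06 and -4.19 in wild type. With all arrays in the fit CIC1 fell by 1.33 (-1.33 ± 0.20, adjusted p = 0.000129). The levels of the groups stay separate when the high first array is set aside. DBP2, an RNA helicase, fell by 1.32 and NIP7, needed for the same step, by 1.22. NOP16, also of the large subunit pathway, rose by 0.85 and UTP20, of the small subunit processome, by 0.68. In 112A the median of the list was 0.03 from wild type. Against 112A, 23 of the 49 genes were lower in 58F, beside 17.9% of all genes. Among 20 RNA polymerase I and III subunits, 10 fell and 3 rose, with RPC82 and RPA34 falling by 1.28 and 1.16. Mitochondrial ribosomal protein genes fell in 50 of 69 cases and rose in 2 (1 without 58F replicate 4), with a median of -0.27 that was -0.23 in 112A, and RSM22 and MRPL3 fell by 0.93 and 0.91.

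Chaperone genes fell as a group. Of 27 heat shock and chaperone genes, 26 fell and 0 rose (1 rose without wild type replicate 1), with a median of -0.79. BTN2 (YGR142W), which sequesters misfolded proteins, was at -3.12, -2.78, -3.15 and -3.12 in 58F and at -0.69, -1.06, -0.86 and -0.77 in wild type. The fall was 4.58-fold (-2.20 ± 0.10, adjusted p = 3.99e-08), with 112A in between at -2.06 ± 0.10 (SD, n = 4). SSA3, a stress-induced Hsp70, fell by 2.16, YDJ1, its main Hsp40 partner, by 1.60 and HSP12, a small membrane-protecting protein, by 1.32. The median was -0.40 for 112A against wild type and -0.37 for 58F against 112A, where 23 of the 27 were lower. Proteasome genes fell in 27 of 35 cases and rose in 0, by little: RPN1 and RPT3, both of the regulatory particle, fell by 0.59 and 0.53, and RPN4, the transcription factor of proteasome genes, by 0.56. Folding factors of the endoplasmic reticulum rose in 10 of 20 cases and fell in 3, with a median of 0.23 that became -0.25 on the spike-in scale. ERO1, the thiol oxidase of that compartment, went against this with a fall of 1.71, while SSS1, a subunit of the translocon, rose by 0.84.

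Stress genes outside the chaperones were mixed. Of 30 genes of trehalose, glycogen and the general stress response, 14 fell (46.7%) and 7 rose (23.3%), beside 32.2% and 29.7% of all genes. With quantile scaling, however, the counts were 8 falls and 12 rises. GRE1, a hydrophilin, fell by 1.34, DDR2 by 1.16 and GLG2, which primes glycogen synthesis, by 1.42. MSN4, one of the pair of general stress activators, rose by 0.65. Of 36 genes of oxidative stress and thiol redox, 23 fell and 5 rose, with 15 falls under quantile scaling; TRX3, the mitochondrial thioredoxin, and TSA2, a peroxiredoxin, fell by 0.96 and 0.89.

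Genes of amino acid synthesis beyond leucine fell in most lists. Methionine synthesis and sulfate assimilation had 21 of 24 genes lower and 1 higher, CYS3, with a median of -0.48. MET16, the PAPS reductase, was at -1.85, -1.85, -1.75 and -1.91 in 58F and at -0.58, -0.83, -0.79 and -0.77 in wild type. The 58F arrays were lower throughout (-1.10 ± 0.08, adjusted p = 5.48e-07). SAM1, an S-adenosylmethionine synthetase, fell by 1.15 and MET6, the methionine synthase, by 1.04, while CYS3, the cystathionine gamma-lyase, rose by 0.55. The list's median was -0.06 for 112A against wild type and -0.43 for 58F against 112A, and 21 of the 24 were below 112A. Of 24 other genes under Gcn4, the activator of amino acid synthesis, 16 fell and 3 rose. In the direct comparison 11 were below and 2 above 112A, beside 17.9% and 14.1% of all genes. HOM3, the aspartate kinase, fell by 1.61 and ASN1, an asparagine synthetase, by 1.09, while HIS4 rose by 0.49. In arginine and proline metabolism 11 of 17 fell and 3 rose, with ARG8 and ARG4 falling by 1.18 and 1.01 and PRO1 rising by 0.61. LYS20, a homocitrate synthase that starts lysine synthesis, fell by 1.11, whereas LYS12, of a later step, rose by 0.75. Of 9 genes in the pathway 3 rose and 3 fell (33.3% each), beside 29.7% and 32.2% of all genes. GDH1, the main glutamate dehydrogenase, fell by 1.13, in a list of 10 with 8 falls and 1 rise. Genes under nitrogen catabolite repression fell in 14 of 18 cases with 0 rises, DAL2 by 0.84, and AGP1, a broad amino acid permease, fell by 0.84.

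Lists of mineral uptake were mixed within themselves. In the phosphate regulon 7 of 23 genes fell (30.4%) and 6 rose (26.1%), beside 32.2% and 29.7% of all genes. PHO84, the high-affinity phosphate transporter, was at -3.08, -3.27, -2.66 and -2.89 in 58F and at -0.10, -1.72, -1.19 and -0.88 in wild type. It fell by 2.0 ± 0.35 (adjusted p = 0.00036), and 112A differed from wild type by -0.14 (adjusted p = 0.76). SPL2, which restrains low-affinity phosphate uptake, fell by 1.27. PHO5, the secreted acid phosphatase under the same activator, rose by 0.51, and GDE1, a glycerophosphocholine phosphodiesterase, by 0.72. In the iron regulon 12 of 27 genes rose (44.4%) and 9 fell (33.3%). FIT3, a cell wall mannoprotein that retains siderophores, was at 3.44, 3.06, 2.68 and 3.56 in 58F and at 1.69, 1.89, 1.93 and 1.81 in wild type. It rose by 1.35 ± 0.15 (adjusted p = 1.43e-05), with a rise of 1.86 in 112A. FRE5, a putative ferric reductase, rose by 1.39 and TIS11, which degrades mRNAs of iron-using proteins, by 1.05, while FRE1, a ferric and cupric reductase, fell by 0.78. CTR1, the copper transporter, fell by 1.51, and 112A was not called against wild type (-0.34, adjusted p = 0.138).

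Of 16 purine synthesis genes, 6 rose (37.5%) and 5 fell (31.2%), beside 29.7% and 32.2% of all genes. ADE4, the amidotransferase of the first step, fell by 1.15, and IMD2, an IMP dehydrogenase above background on 2 of 4 arrays in 58F, fell by 1.5. ADE17, of the last steps to IMP, was at -0.16, -0.04, -0.13 and -0.42 in 58F and at -0.93, -1.34, -1.27 and -1.21 in wild type. It rose by 1.00 ± 0.12 (adjusted p = 2.3e-05), and lay as far above 112A (1.07, adjusted p = 0.000167), which did not differ from wild type past the threshold (-0.06, adjusted p = 0.68). ADE13, the adenylosuccinate lyase, rose by 0.77. SNZ1, of pyridoxine synthesis, fell by 1.07, and NPT1, of NAD salvage, rose by 1.08.

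The histone genes, whose H3 product carries the mark that ScFv-58F is directed against, were lower. Of 11 core and variant histone genes, 8 fell and 0 rose, with a median of -0.59, which was -0.31 for 112A against wild type and -0.27 for 58F against 112A. HHT1 (YBR010W), one of the pair of genes for histone H3, was at 2.81, 2.86, 3.05 and 3.08 in 58F and at 3.83, 3.60, 3.73 and 3.84 in wild type. It fell 1.74-fold (-0.80 ± 0.10, adjusted p = 3.7e-05) and lay 0.36 below 112A (log2 difference -0.36, adjusted p = 0.018). HHT2, the other H3 gene, was at 3.16, 3.17, 3.26 and 3.25 against 3.72, 3.53, 3.63 and 3.74. That fall was smaller (-0.44 ± 0.07, adjusted p = 0.00017), and with quantile scaling it was -0.20 and not called. HHF1, a gene for histone H4, was at 1.91, 1.84, 1.88 and 2.15 in 58F and at 3.51, 2.61, 2.89 and 3.19 in wild type. HHF1 fell by 1.10 ± 0.21 (adjusted p = 0.000681), and its 112A arrays, at 1.88 to 2.76, overlap both other groups. HHF2, the second H4 gene, fell by 1.04, and HTB2 and HTB1, for H2B, by 0.89 and 0.70. HTZ1, the H2A variant found at promoters, fell by 0.59. HTA1, for H2A, fell by 0.31, a call that quantile and cyclic loess scaling ended, and HTA2 was at -0.14 ± 0.09 (adjusted p = 0.204). The paired histone genes resemble each other closely, so their probes may share signal.

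Genes for the enzymes that write and erase histone acetylation moved in both directions and by little. Of 29 genes of SAGA and other histone acetyltransferases, 7 rose (24.1%) and 11 fell (37.9%), beside 29.7% and 32.2% of all genes. The median of the list was -0.00. Without wild type replicate 2 or 3 the rises were 4. GCN5 (YGR252W), the catalytic subunit of SAGA, was at -1.59, -1.59, -1.58 and -1.68 in 58F and at -2.10, -2.14, -2.10 and -2.08 in wild type. It rose by 0.50 ± 0.04 (adjusted p = 1.05e-06), which is 0.02 on the spike-in scale. ADA2, the partner that Gcn5 needs to act on nucleosomes, was at -3.14, -3.06, -3.10 and -3.30 in 58F and at -2.51, -2.46, -2.27 and -2.39 in wild type. It fell by 0.74 ± 0.06 (adjusted p = 1.8e-06). TRA1, the large scaffold subunit, rose by 0.50, and YNG1, a reader subunit of NuA3, fell by 0.67. For both ADA2 and GCN5 the 112A arrays lie between those of 58F and wild type.

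Among 26 genes of histone deacetylases and silencing, 9 rose (34.6%) and 8 fell (30.8%), beside 29.7% and 32.2% of all genes. The median of the list was 0.04. RPD3, the deacetylase of the main repressive complexes, was at -1.64, -1.54, -1.54 and -1.71 in 58F and at -1.75, -1.77, -1.87 and -1.90 in wild type. Its rise of 0.21 ± 0.06 (adjusted p = 0.00634) becomes -0.27 on the spike-in scale. HDA2, a subunit of the Hda1 complex, rose by 0.50, and UME1 and EAF3, which belong to Rpd3 complexes, fell by 0.63 and 0.56. Of 34 genes of H3 methylation, acetyl-lysine readers and remodelling, 9 rose and 9 fell (26.5% each), near the shares of all genes. SET2, the H3 lysine 36 methyltransferase, fell by 0.94 and JHD2, an H3 lysine 4 demethylase, by 0.99, while CHD1, a remodeller, rose by 0.71 and SDC1, a subunit of the H3 lysine 4 methyltransferase complex, by 0.69.

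**Figure D4:**
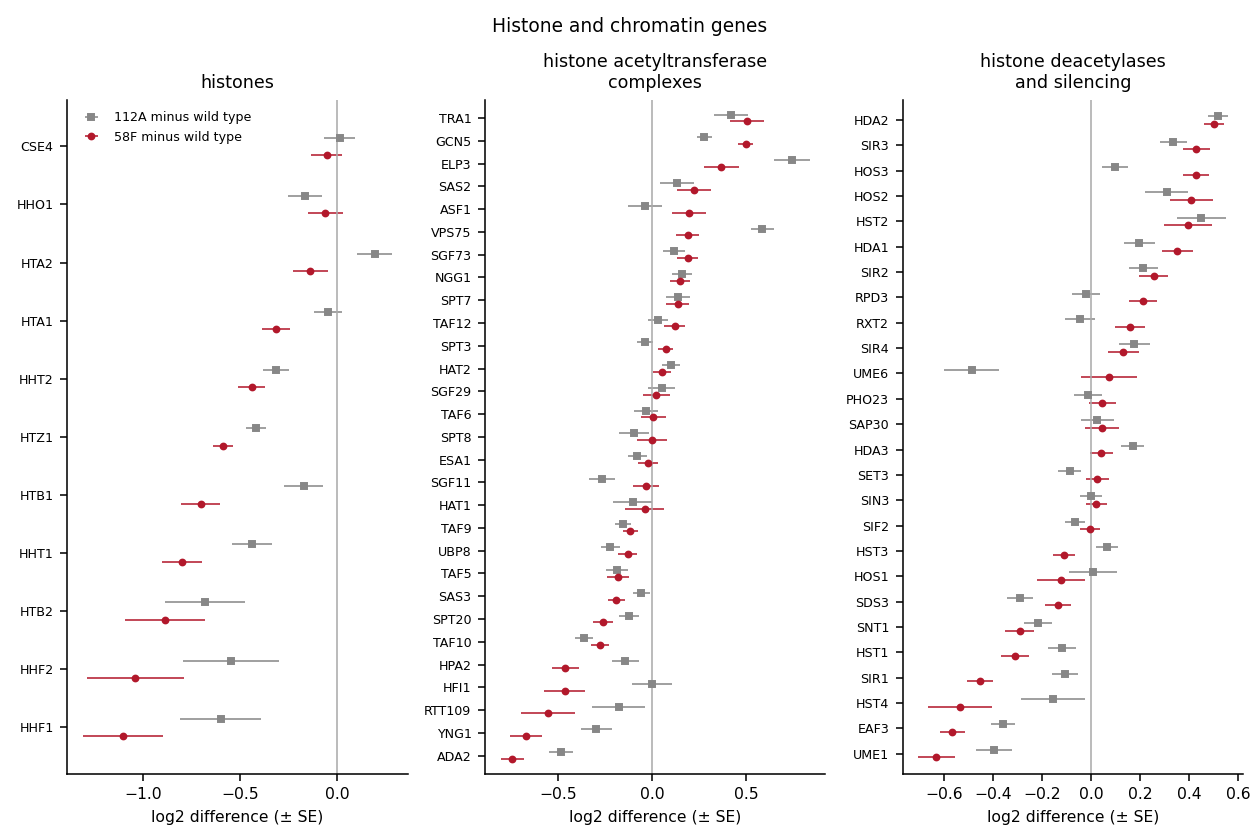
Log2 difference from wild type with its SE for histone genes, histone acetyltransferase complexes and histone deacetylases, 58F in red circles and 112A in grey squares, 4 arrays per group. The core histone genes lie at or below 0 in 58F, while the other lists spread on both sides of 0 within about 0.8.

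The list of hypoxic and haem-repressed genes also holds regulators, among them ROX1 and HAP1 to HAP5. Of its 24 genes tested, 8 rose (33.3%) and 9 fell (37.5%), beside 29.7% and 32.2% of all genes. TIR1 and TIR2, cell wall mannoproteins of cold and hypoxia, rose by 1.24 and 1.14, and UPC2, the activator of sterol uptake genes, by 1.15. ANB1, the hypoxic form of translation factor eIF5A, was at -5.02, -5.10, -4.84 and -5.06 in 58F and at -6.63, -7.15, -6.60 and -7.42 in wild type. All 4 arrays of 58F but only 1 of wild type were above background, so no fold is given. The falls include HAP3 and HAP4, given above, but also AAC3 (-0.49), DAN4 (-0.41), HES1 (-0.35), CYC7 (-0.32) and HMG2 (-0.24), which are not regulators. HEM13, COX5B and TIR4 were not called, so the hypoxic genes themselves went in both directions. In ergosterol synthesis 13 of 25 genes rose and 6 fell, with a median of 0.21 that became -0.27 on the spike-in scale. ERG2, ERG4 and ERG6, all late in the pathway, rose by 0.82, 0.80 and 0.70.

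Genes of cell wall integrity and of the COS and DUP240 families rose in larger numbers than they fell. Other lists of the cell surface went the other way: 6 of 11 flocculins and filamentous growth genes fell and 3 rose, and 11 of 18 amino acid permeases fell and 2 rose. Of 28 genes of cell wall integrity, 16 rose and 3 fell, or 1 fell without any 1 of wild type replicate 1 and 58F replicates 2 and 3, with a median of 0.28 and of -0.20 on the spike-in scale. CHS1, a chitin synthase, rose by 0.90, CRH1, a chitin transglycosylase, by 0.81 and WSC4, of the WSC sensor family, by 0.69. In the COS and DUP240 families of membrane proteins 16 of 18 genes rose and 0 fell, with a median of 0.45 that is -0.04 on the spike-in scale. KTD1 (YAR028W), a DUP240 member that protects against killer toxin K28, was at -1.64, -1.48, -1.56 and -1.85 in 58F and at -3.60, -3.04, -3.01 and -2.90 in wild type. It rose by 1.5 ± 0.21 (adjusted p = 8.8e-05). PRM9, its neighbour in the family, rose by 1.75 and passed background on all 4 arrays of 58F and on 2 of wild type. The members of these families resemble each other, so their probes may share signal.

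Genes of mating, meiosis and the cell cycle gave no common direction. Of 25 a-specific and haploid mating genes, 8 rose (32%) and 9 fell (36%), beside 29.7% and 32.2% of all genes. FAR1, which arrests the cycle on pheromone, fell by 1.09, and ASG7, an a-specific regulator of pheromone signalling, rose by 0.92. STE3 rose by 0.46, which is -0.02 on the spike-in scale. IME1, the master activator of meiosis, was at -0.66, -0.73, -0.71 and -0.59 in 58F and at -1.78, -1.63, -1.75 and -1.65 in wild type. It rose by 1.03 ± 0.05 (adjusted p = 6.09e-08) and by 0.89 in 112A. IME2, the kinase downstream of it, rose by 0.61, and SPS100, of the spore wall, fell by 1.19. Of 22 meiosis genes tested, 9 rose (40.9%) and 5 fell (22.7%). In the list of G1/S and DNA replication, 12 of 37 genes rose (32.4%) and 6 fell (16.2%), and with quantile scaling 20 rose. POL2, the catalytic subunit of DNA polymerase epsilon, rose by 0.91 and RFA3, of replication protein A, by 0.72.

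There were 2 genes that passed background on every 58F array and on 0 wild type arrays, both open reading frames without a name. YOL085C was at -4.68, -4.37, -4.55 and -4.11 in 58F and at -9.01, -8.21, -7.65 and -7.95 in wild type. Its level was at least 8.46-fold higher in 58F, taking the lowest signal above background on each wild type array as the bound; the gene passed the filter on dim probes through the arrays where it is high, so no p is given. In 112A it was higher still, at -3.63 to -3.33. YOR050C.1, as the files name it, was at -4.24, -4.42, -3.95 and -4.46 against -7.54, -7.29, -7.24 and -7.53, at least 7.37-fold higher in 58F, and at -4.18 to -3.81 in 112A. ADH1, whose systematic name YOL086C is the one next to YOL085C, was also raised in both groups, by 0.96 in 58F and 0.88 in 112A. No gene was above background on all wild type arrays and on 0 of 58F.

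The chromosomes did not shift as wholes. The median difference over the genes of each of the 16 nuclear chromosomes was between -0.07 and 0.05. Of the strain's marker genes, HIS3 fell by 0.35 and URA3 by 0.20, and LYS2 rose by 0.50; the call of URA3 was lost with quantile and cyclic loess scaling.

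Medians of the lists are given side by side for 58F and 112A, 2 comparisons that share the wild type arrays. Counts of genes below and above 112A stand beside 17.9% and 14.1% of all genes. For glycolysis, respiration, chaperones, histones and leucine synthesis the 58F median was farther from 0. For nitrogen catabolite repression the medians were -0.43 in 58F and -0.41 in 112A, and 4 of the 18 genes were below and 1 above 112A in 58F. The Gcn4 genes had -0.23 and -0.22, yet the median of their direct differences, 58F minus 112A, was -0.13. Gluconeogenesis had -0.23 and -0.40, while its direct median was also -0.13, with 6 of 17 genes below and 2 above 112A in 58F. Glutamate synthesis had -0.31 and -0.40 and a direct median of -0.01. Ribosome biogenesis had -0.32 and 0.03, methionine synthesis -0.48 and -0.06, and the proteasome -0.26 and -0.06.

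**Figure D5:**
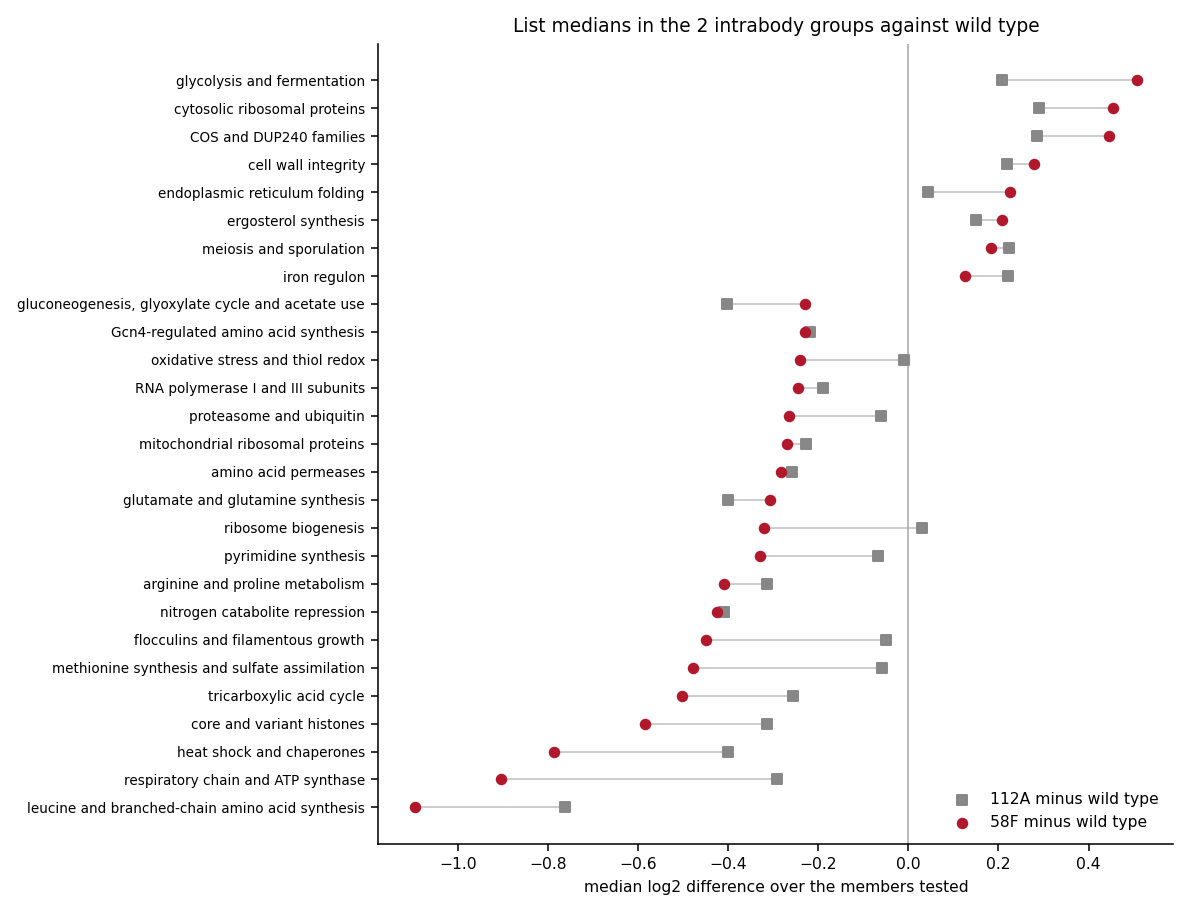
Median log2 difference from wild type over the tested members of 27 gene lists, those with a median of at least 0.2 in size in either group, for 58F (red circles) and 112A (grey squares). Respiration, chaperones, methionine synthesis and ribosome biogenesis have lower medians in 58F than in 112A; a median of a list need not follow its direct differences between 58F and 112A, which for Gcn4 genes have a median of -0.13.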

How the data were processed

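RNA of 12 samples was labelled with Cy3 and measured on 1-colour Agilent arrays. The authors' scanner files come from Feature Extraction 10.7.3.1; per the file headers, the processed signal is an intensity with local background subtracted, not scaled between arrays. A deposited table of the authors' own log2 values served as an alternative. The depth of an array has no count behind it, and the number of arrays limits the precision. From the files, outlier spots (25 to 125 per array) were left out, log2 intensity minus the array's 75th percentile was taken, and 2 spots per probe were averaged. Of 6224 genes, each represented by its brightest probe, 5827 were tested, those well above background on at least 4 of 12 arrays; 17 lack a value on some array of 58F or wild type. Names follow RefSeq R64 for 5749 genes and the files for 475; the files' build differs, so no coordinates are given. The test was limma 3.58.1 (R 4.3.3; lmFit and eBayes on the 3 group means, 2-sided, Benjamini-Hochberg), and the code was tested on simulated data. A gene with 0 arrays above background in a group has a bound as its fold.

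Members and gene lists were chosen with earlier results of these data known. The text names part of the genes given by a rule: per direction, the 15 largest changes without overlap, the 8 largest bounds, up to 4 called members of each list, and fixed marker, histone and chromatin genes. The alternatives were other scalings, background corrections and filters, the deposited table, a replicate block, leaving out each array, and, chosen after seeing the data, a scale set on the spike-ins. Promoter motifs were planned and not run, since promoter sequences were not used here.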

Additional observations from a re-analysis of the deposited data

Results flagged for a closer look

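Of 311 groups of 4 arrays examined, 17 hold an array whose value is far from the other 3 by Dixon's test, where chance alone gives about 1 in 20 groups. Of these, 12 are on wild type replicate 1, whose 75th percentile of the processed signal was 9362. On that array CYC1 was at 1.55, SSA3 at 2.10, SFC1 at 2.39, PHO89 at 0.89, FRE7 at 0.046, RSM22 at -2.55 and JHD2 at -2.03, all above the other wild type arrays. HXT1 at -1.38, ADH1 at 5.40, ENO2 at 3.53 and PRM9 at -6.56 were below them there. In each of these genes the array lies farther from 58F than its group does, and each stayed called without it. These genes are among those named by a rule that prefers large differences between 58F and wild type. An outlying wild type value away from 58F makes such a difference larger, so the shared direction is favoured by the choice of genes. On single 58F arrays, BTN2 stood apart at -2.78 and SSS1 at 0.70 (both replicate 2), and NIP7 at -4.65 and GCN5 at -1.68 (both replicate 4). COB was at 2.57 on wild type replicate 3, above the rest of its group.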

How the results depend on the processing

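The number of genes called, 3609, stayed within 1.5 times under all alternatives run, and leaving out 1 array gave 3292 to 3584. The split by direction did not stay: 1732 higher and 1877 lower became 81 higher and 3502 lower on the spike-in scale. The number called at 2-fold or more, 207, was 182 to 226 with 1 array left out, but 137 with normexp background correction and 668 on the spike-in scale (13 higher and 655 lower). The spike-in scale lowers the differences by 0.48, which carries falls past the 2-fold threshold and takes rises below it. The cause of the smaller number with normexp was not tested. With the replicate block 3512 genes were called, 207 of them at 2-fold or more; same-numbered arrays of 58F and wild type deviated together with r of 0.08, 0.17, 0.19 and 0.09 across genes, and 58F replicate 1 correlated best with wild type replicate 2 (0.22), so the numbers were not taken as pairs, and the block changed no call of a named gene. Of 2756 results of the 154 named genes under an alternative, 2716 kept direction and call, and 0 of the changes came from leaving out an array. The call changed under some setting for 38 of the named genes. Results became weaker in 36 cases and stronger in 1. On the spike-in scale 34 changed, and with quantile or cyclic loess scaling 6. Among the 34 on the spike-in scale, 3 turned sign: RPD3 (-0.27), STE3 (-0.019) and LEU3 (-0.20). Differences of YOL085C, YOR050C.1 and IMD2, among others, shrank by over 1.5 times with normexp, to 2.17, 1.89 and -0.86. Dim genes are limited by their signal over background. The search of promoters for motifs was not run.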

Other observations

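Several gene groups belong to none of the accounts above. Their counts stand beside 29.7% of all genes that rose and 32.2% that fell. Of 11 flocculins and filamentous growth genes, 6 fell and 3 rose, with a median of -0.45 in 58F and -0.05 in 112A. In pyrimidine synthesis 7 of 13 genes fell and 2 rose, with medians of -0.33 and -0.07. The rises were 1 without any 1 of replicates 2 and 4 of 58F and 2 and 3 of wild type, with the replicate block, with the array median as the scale and with no filter on dim probes, and 4 with quantile scaling. Seripauperins, a subtelomeric family of near-identical genes, rose in 6 of 24 cases (25%) and fell in 0. The falls were 2 without 58F replicate 1 and 1 without wild type replicate 1 or 4. In 112A 15 of the 24 were higher than in wild type, beside 22.8% of all genes. Vacuolar proteases and autophagy genes rose in 9 of 18 cases and fell in 5, with a median of -0.31 on the spike-in scale. Of 20 genes of inositol and phospholipid synthesis, 9 fell and 5 rose. In the direct comparison 12 of them were lower in 58F than in 112A, beside 17.9% of all genes. Among 29 aminoacyl-tRNA synthetases and translation factors 10 rose and 10 fell (34.5% each), near the shares of all genes. Of 19 genes of peroxisomal fatty acid oxidation 6 rose (31.6%) and 3 fell (15.8%). In the list of zinc and copper genes 9 of 17 fell and 4 rose, but 5 fell when any 1 of the 58F replicates 1, 2 and 4 or of the wild type replicates 2, 3 and 4 was left out.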
